A study of Homo sapiens with 6 samples.

Results

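Amino acid transporters carry amino acids across the plasma membrane, and 10 of them were examined in LX-2 cells, an immortalised line of human hepatic stellate cells, the collagen-producing cells of the liver. The genes were selected by symbol from the table of 33900 genes, and each of the 10 symbols had 1 row. The list of symbols was drawn up with earlier results of these data known, so comparisons with other genes are descriptions. The question was how the transporter genes differed between cells given recombinant human Sema3C (rhSema3C), a secreted semaphorin, and cells given PBS. The labels describe both groups as wild type and as cultured in DMEM with serum, and give 3 samples treated with rhSema3C at 300 ng/ml and 3 treated with PBS, each for 48 h. All samples came from 1 cell line in monoculture, and the labels call the samples biological replicates without saying whether they were separate cultures, so the p-values measure the spread between these samples.

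The transporters fall into functional classes. SLC7A11 (xCT), which exchanges extracellular cystine for glutamate, and SLC7A5 (LAT1), which exchanges large neutral amino acids such as leucine, are light chains that reach the membrane bound to the heavy chain SLC3A2 (4F2hc, CD98). SLC7A1 (CAT1) carries the cationic amino acids arginine, lysine and ornithine. SLC1A4 (ASCT1) and SLC1A5 (ASCT2) are sodium-dependent exchangers of small neutral amino acids, ASCT2 also of glutamine. SLC38A1 (SNAT1) and SLC38A2 (SNAT2) take up glutamine, alanine and other neutral amino acids with sodium, SLC6A9 (GlyT1) takes up glycine, and SLC43A1 (LAT3) is a facilitative carrier of branched-chain amino acids and phenylalanine. When amino acids are scarce or the endoplasmic reticulum is stressed, phosphorylation of the initiation factor eIF2α raises translation of the transcription factor ATF4, and several of these genes are known ATF4 targets. SLC7A11 is also a target of NRF2, the regulator of antioxidant genes.

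The total counts on genes ranged from 68267808 to 89245585 per sample. The share of counts on mitochondrial genes was 4.75% to 5.42% in PBS and 3.73% to 3.93% with rhSema3C, and the TMM factors, which correct for the composition of the libraries, were 0.958 to 0.968 and 1.034 to 1.043. Both separated the groups, and their part in the results was not tested beyond the other scalings given with each gene. Chi-square values per degree of freedom of 15.9 to 27.7 between replicates of a group showed that no library was a copy of another. Of the stellate markers examined, VIM (1035 FPKM in PBS) and COL1A1 (96 FPKM) were high, while COL1A2 and DES were below the expression filter. At an adjusted p below 0.05 (edgeR), 4 of the 5 tested markers were lower with rhSema3C, where 30.6% of all genes tested were lower. The 4 were VIM, COL1A1, COL3A1 and ACTA2, and PDGFRB was not called. The summed level of the hepatocyte markers in the table was between 2.63 and 4.14 FPKM in all samples, nearly all of it SERPINA1, with ALB at or near 0. For the endothelial, macrophage and cholangiocyte lists the sums lay between 0.803 and 14.7 FPKM, with PECAM1, CDH5, PTPRC and EPCAM near 0 and with CD14, lower with rhSema3C, and SOX9, also lower, carrying most of the macrophage and cholangiocyte sums. The endothelial sum held KDR, which overlapped between the groups, and VWF, which was below the filter and went from 0.101 to 0.66 FPKM. Their part in the results was not tested. The labels name LX-2 cells alone, so these lists describe transcripts in that line and not numbers of other cells. Bulk RNA gives no count of cells.

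Most of the transporter genes rose with rhSema3C. SLC7A11, SLC7A5, SLC38A1, SLC1A4, SLC38A2 and SLC1A5 were higher, SLC7A1 was lower, and SLC3A2 and SLC43A1 did not pass the test. SLC6A9 was below the filter, a mean of at least 0.5 FPKM over the 6 samples. At an adjusted p below 0.05 (edgeR's quasi-likelihood test, Benjamini-Hochberg adjustment over 14178 genes), 6 of the 9 tested transporters were higher, where 31.7% of all genes tested were higher, and 1 was lower, where 30.6% were. At a fold change above 2 with an unadjusted p below 0.05, 3 were higher (3.42% of all genes) and none was lower (2.12% of all genes). The 3 were SLC7A11, SLC7A5 and SLC38A1. In CPM, in 6 of the 9 all rhSema3C samples lay above all PBS samples, as in 34.6% of all genes, and in 1 below them, as in 33.3%. The median log2 fold change of the 9 was 0.61, from -0.26 to 1.64, beside 0.02 for all genes tested. Relative to the PBS mean, the median log2 difference of the 9 was 0.54, 0.68 and 0.61 in rhSema3C replicates 1, 2 and 3.

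**Figure D1:**
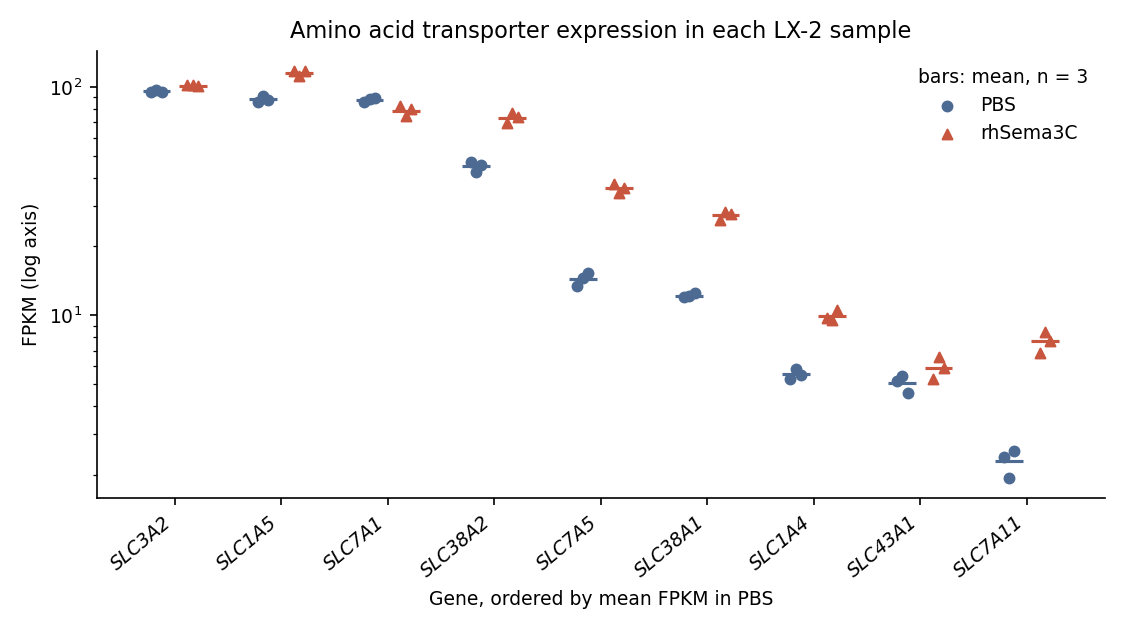
FPKM of the 9 tested transporter genes in each sample on a log axis, with PBS as circles, rhSema3C as triangles and horizontal bars at the group means (n = 3). The rhSema3C points lie apart from and above the PBS points for SLC1A5, SLC38A2, SLC7A5, SLC38A1, SLC1A4, SLC7A11 and, by a small margin in this unit, SLC3A2, and below them for SLC7A1.

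Solute carriers are the gene family to which the transporters belong. Among the 202 other solute carrier genes tested (symbols beginning with SLC and a digit), 27.7% were higher and 40.1% lower at the adjusted p, and the median log2 fold change was -0.0053. At a fold change above 2, 3.47% of them were higher and 0.495% lower. By log2 fold change, SLC7A11 ranked 1 among all 211 solute carrier genes tested, SLC7A5 ranked 6, SLC38A1 ranked 9, SLC1A4 ranked 14 and SLC38A2 ranked 22. SLC1A5, SLC43A1, SLC3A2 and SLC7A1 stood at 53, 87, 110 and 142. These are ranks of the same comparison and carry no test of their own. The symbol rule also takes in genes that are not carriers, among them the antisense genes SLC16A1-AS1 and SLC9A3-AS1. The 202 and 211 genes are therefore not carriers alone.

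**Figure D2:**
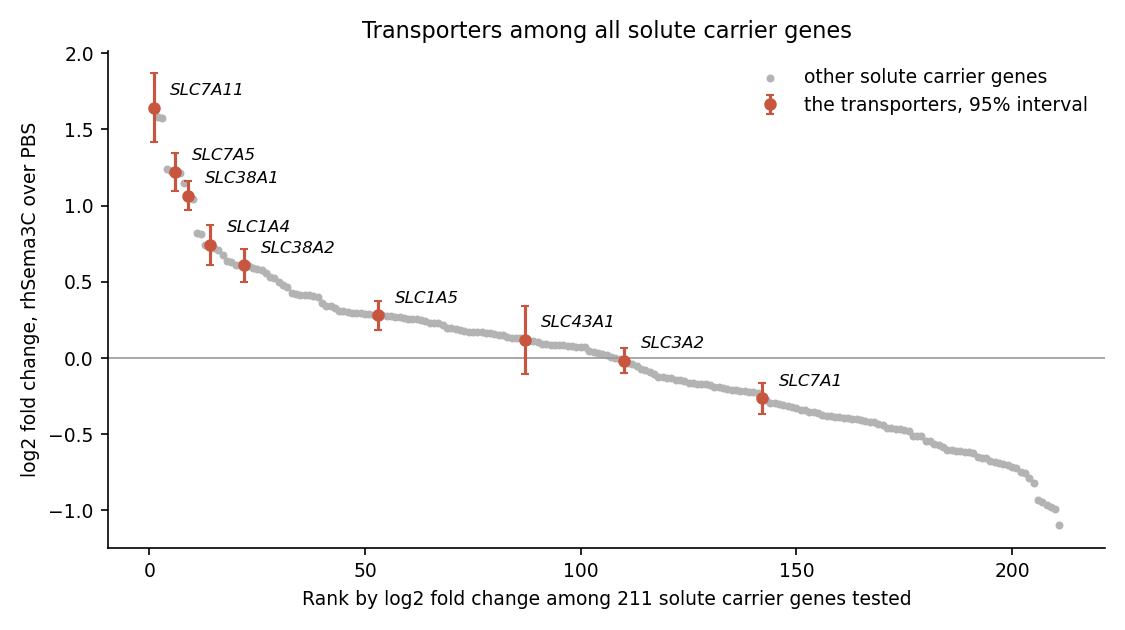
Log2 fold change (rhSema3C over PBS) of the 211 solute carrier genes tested, in rank order, with the transporters as large points with 95% intervals and the others in grey. SLC7A11 is the first of all, and SLC7A1, at rank 142, is the only transporter of the 9 whose interval lies below 0.

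SLC7A11 (ENSG00000151012), the cystine carrier, lies on chromosome 4 of GRCh38 from 138164097 to 138242349 on the minus strand. Its level was 24.4, 20.0 and 26.1 CPM (read counts scaled to the library size with TMM factors) in PBS replicates 1, 2 and 3, and 65.7, 81.1 and 73.7 CPM in the rhSema3C replicates. Every rhSema3C sample was more than 2-fold above every PBS sample. The mean, with the SD over 3 samples, rose from 23.5 ± 3.16 to 73.5 ± 7.70 CPM. This is a log2 fold change of 1.64 (SE, the standard error, 0.10, quasi-likelihood adjusted p = 1.8e-07 in edgeR), or 3.12-fold. An antisense gene, SLC7A11-AS1, shares 865 exonic bases with it and held between 113 and 229 counts, against 1395 to 7412 for SLC7A11. The counting is not stated to use strand, so reads of the antisense gene cannot be told apart there.

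SLC7A5 (ENSG00000103257), the leucine and large neutral amino acid exchanger, lies on chromosome 16 from 87830023 to 87869507 on the minus strand. PBS replicates 1, 2 and 3 gave 67.97, 74.38 and 77.76 CPM, and the rhSema3C replicates gave 178.9, 162.7 and 170.6 CPM. The groups were far apart in comparison with their spread. The log2 fold change was 1.22 (SE 0.06, quasi-likelihood adjusted p = 2.3e-08 in edgeR), or 2.33-fold. The table also lists its pseudogenes SLC7A5P1 and SLC7A5P2, whose highest counts in any sample were 21 and 68, against at least 5114 for SLC7A5.

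SLC3A2 (ENSG00000168003), the shared heavy chain, lies on chromosome 11 from 62856102 to 62888875 on the plus strand. Under PBS its level was 520.5, 537.5 and 519.5 CPM, and under rhSema3C 521.8, 520.9 and 514.9 CPM. The groups overlapped, and the log2 fold change was -0.02, with a 95% interval from -0.10 to 0.06 (quasi-likelihood adjusted p = 0.69 in edgeR). Other scalings gave the opposite sign. When only library size was used the log2 fold change was 0.0909 (adjusted p = 0.044), and with limma on log2(TPM + 1) it was 0.21 (adjusted p = 0.00088), settings that moved the median of all genes by 0.11 and 0.20. In FPKM, too, the rhSema3C samples (100.9 to 101.8) lay above the PBS samples (94.9 to 97.2).

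Since the light chains pair with SLC3A2, their levels per transcript length were compared within each sample. The ratio of SLC7A5 to SLC3A2 in FPKM was 0.141, 0.150 and 0.162 under PBS and 0.371, 0.338 and 0.359 under rhSema3C, a 2.36-fold difference of the means. For SLC7A11 over SLC3A2 the ratio was 0.0251, 0.0199 and 0.0269 in PBS and 0.0672, 0.0832 and 0.0765 with rhSema3C, a 3.16-fold difference. A ratio within a sample does not depend on the scaling between samples. For both ratios the groups did not overlap (exact two-sided permutation of the samples, p = 0.1, the smallest that 3 samples against 3 allow). The heavy chain transcript remained the more abundant one in all samples, also against the sum of 5 of its light chains (SLC7A5, SLC7A11, SLC7A6, SLC7A7 and SLC7A8), which was 0.265 ± 0.0142 of SLC3A2 in PBS and 0.488 ± 0.00995 with rhSema3C (SD, n = 3 per group).

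SLC7A1 (ENSG00000139514), the cationic amino acid transporter, lies on chromosome 13 from 29509414 to 29595688 on the minus strand. Under PBS it reached 704.2, 733.3 and 728.6 CPM, and under rhSema3C 629.1, 567.7 and 607 CPM. All rhSema3C samples were below all PBS samples, by a small margin relative to the level. The log2 fold change was -0.26 (SE 0.05, quasi-likelihood adjusted p = 0.00041 in edgeR), that is 1.2-fold lower. The call was lost with limma on log2(TPM + 1), where the log2 fold change was -0.04 (adjusted p = 0.52).

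Both exchangers of small neutral amino acids rose. SLC1A4 (ENSG00000115902, chromosome 2 from 64988477 to 65023865, plus strand) was at 39.0, 43.3 and 40.1 CPM in PBS and at 67.1, 65.4 and 72.1 CPM with rhSema3C, a log2 fold change of 0.74 (SE 0.06, quasi-likelihood adjusted p = 1.3e-06 in edgeR). SLC1A5 (ENSG00000105281, chromosome 19 from 46774883 to 46788594, minus strand) was at 305.1, 326.8 and 310.4 CPM in PBS and at 389.3, 368.8 and 386.7 CPM with rhSema3C, a log2 fold change of 0.28 (SE 0.04, adjusted p = 0.00018). With limma on log2(TPM + 1) the value for SLC1A5 was 0.51. SLC1A5 shares 780 exonic bases with an antisense gene that had at most 23 counts. In FPKM, SLC1A5 was 16.3, 15.7 and 16.1 times SLC1A4 under PBS and 12.1, 11.8 and 11.2 times under rhSema3C, so the groups did not overlap (exact two-sided permutation of the samples, p = 0.1, the smallest possible).

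The sodium-coupled glutamine and alanine carriers showed the same arrangement, with the less abundant paralog rising more. SLC38A1 (ENSG00000111371, chromosome 12 from 46183063 to 46269951, minus strand) stood at 127.5, 129.8 and 132.6 CPM in PBS and at 260.2, 281.8 and 274.1 CPM with rhSema3C, a log2 fold change of 1.07 (SE 0.04, quasi-likelihood adjusted p = 9.3e-09 in edgeR). SLC38A2 (ENSG00000134294), its neighbour on chromosome 12 from 46358188 to 46372773 on the minus strand, stood at 324.3, 297.1 and 313.3 CPM in PBS and at 452.8, 498 and 474.5 CPM with rhSema3C. Its log2 fold change was 0.61 (SE 0.05, adjusted p = 1.2e-06). Among the 6 samples, the ratio of SLC38A2 to SLC38A1 in FPKM was between 3.52 and 3.91 in PBS and between 2.66 and 2.72 with rhSema3C (exact two-sided permutation of the samples, p = 0.1).

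No difference was called for SLC43A1, and SLC6A9 was too low to test. SLC43A1 (ENSG00000149150, chromosome 11 from 57484534 to 57515780, minus strand) was at 19.3, 20.6 and 17.1 CPM in PBS and at 18.5, 22.9 and 20.5 CPM with rhSema3C. The groups overlapped, and the log2 fold change was 0.12, with a 95% interval from -0.10 to 0.34 (quasi-likelihood adjusted p = 0.32 in edgeR). With limma on log2(TPM + 1) it was 0.33 (adjusted p = 0.014). SLC6A9 (ENSG00000196517, chromosome 1 from 43991500 to 44031467, minus strand) had 17, 8 and 0 counts under PBS and 21, 0 and 16 under rhSema3C. Its groups overlapped, no fold change is given, and 404 of its exonic bases are shared with CCDC24 on the other strand, so even these counts are uncertain.

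The order of the transporters by level changed between the groups. In PBS, the mean FPKM was 95.7 ± 1.32 for SLC3A2, 88.4 ± 2.74 for SLC1A5, 88.1 ± 1.74 for SLC7A1 and 44.9 ± 2.18 for SLC38A2, followed by 14.4 ± 0.986 for SLC7A5 and 12.2 ± 0.263 for SLC38A1 (SD, n = 3). SLC1A4 (5.51 ± 0.275), SLC43A1 (5.04 ± 0.436) and SLC7A11 (2.29 ± 0.319) were the lowest of the 9. The levels of SLC1A5 and SLC7A1 overlapped and changed order between samples. Those of SLC1A4 and SLC43A1 also overlapped across samples, though SLC1A4 was the higher within each of the 3 PBS samples. With rhSema3C, SLC1A5 (115.3 ± 3.37 FPKM) stood above SLC3A2 (101.4 ± 0.487), and SLC7A11 (7.67 ± 0.814) above SLC43A1 (5.89 ± 0.646), in all 3 samples. SLC7A1 (78.8 ± 4.01) and SLC38A2 (73.5 ± 3.58) then overlapped, followed by SLC7A5 (36.1 ± 1.66), SLC38A1 (27.4 ± 1.15) and SLC1A4 (9.89 ± 0.529). The FPKM of the 10 genes summed to between 352 and 359.8 in PBS and between 451.8 and 459.3 with rhSema3C, a 1.28-fold difference of the means. This difference depends on the scaling between samples. SLC3A2, a large part of the sum, was higher with rhSema3C in FPKM, while its mean CPM was 525.8 in PBS and 519.2 with rhSema3C. SLC7A1 made up 24.7% ± 0.252 of the sum in PBS and 17.3% ± 0.772 with rhSema3C, while the shares of SLC7A11, SLC7A5, SLC1A4, SLC38A1 and SLC38A2 were higher in all rhSema3C samples than in all PBS samples.

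Sequence upstream of the start sites is given for transporters that moved in either direction, with the letters that matched a searched motif in capitals. RefSeq (GRCh38.p14) listed 16 start sites for 9 of the 10 genes and none for SLC7A11. In the 250 bases before each start, 4 motifs were sought on both strands, namely the composite element of ATF4 and C/EBP factors (TGATGNAA), the core of the antioxidant response element (TGACNNNGC), the E-box (CACGTG) and the CCAAT box (CCAAT). The matches shown do not overlap one another. The composite element was in 1 of the 16 windows, beside 3.14% of all 35116 windows, the antioxidant core in 3 (10.9% of all), the E-box in 3 (6.34%) and the CCAAT box in 4 (32%). The windows of SLC38A1 and SLC38A2 held none of them. Windows of SLC43A1 and SLC1A5 also held an E-box, and windows of SLC3A2 and SLC1A5 an antioxidant core. SLC43A1 and SLC3A2 were not called in either direction, so these motifs did not go with a direction of change. The windows shown are SLC7A5 (chr16:87869508-87869757, minus strand) with an E-box, SLC1A4 (chr2:64989149-64989398, plus strand) with CCAAT boxes in reverse orientation, and SLC7A1 (chr13:29595689-29595938, minus strand), the gene that fell, with a reverse CCAAT box and an antioxidant core. For SLC1A5 a stretch of 161 bases before a start inside the gene (chr19:46784904-46785064, minus strand) is given up to the composite element TGATGCAA, whose first base is at position -97 from that start. The other windows of SLC1A5, among them the one before the start of the gene, held no composite element.
SLC7A5: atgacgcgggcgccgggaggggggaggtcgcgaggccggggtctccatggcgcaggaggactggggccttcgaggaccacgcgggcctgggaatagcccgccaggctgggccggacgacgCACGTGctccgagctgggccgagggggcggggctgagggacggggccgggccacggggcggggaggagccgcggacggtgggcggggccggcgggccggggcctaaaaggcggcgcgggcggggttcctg
SLC1A4: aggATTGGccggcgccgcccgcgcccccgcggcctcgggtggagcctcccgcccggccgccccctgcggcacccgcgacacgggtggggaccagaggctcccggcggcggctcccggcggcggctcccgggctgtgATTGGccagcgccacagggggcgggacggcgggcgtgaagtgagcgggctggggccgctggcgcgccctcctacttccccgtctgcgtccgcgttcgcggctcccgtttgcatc
SLC7A1: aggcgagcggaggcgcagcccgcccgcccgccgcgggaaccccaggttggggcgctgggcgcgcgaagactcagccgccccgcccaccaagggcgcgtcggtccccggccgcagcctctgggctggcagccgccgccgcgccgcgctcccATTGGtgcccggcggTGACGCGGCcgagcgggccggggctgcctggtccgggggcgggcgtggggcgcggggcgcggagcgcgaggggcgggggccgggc
SLC1A5: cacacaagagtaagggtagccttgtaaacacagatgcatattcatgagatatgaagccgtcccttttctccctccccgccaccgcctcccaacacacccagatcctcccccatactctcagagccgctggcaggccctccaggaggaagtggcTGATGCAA
A match to a motif is a description of letters and not evidence of a bound factor, and the elements of a gene can lie outside these windows.

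The other carriers of amino acids in the plasma membrane included genes called in either direction. Of 26 such genes listed, 20 were in the table and 8 passed the filter. At the adjusted p, 1 of the 8 was higher and 5 were lower, beside 31.7% and 30.6% of all genes, with a median log2 fold change of -0.31. The split moved with the scaling, to 2 higher and 3 lower with library size alone and to 2 and 2 with limma on log2(TPM + 1). SLC1A1, a glutamate and cysteine carrier, rose by 0.72 on the log2 scale (SE 0.21, quasi-likelihood adjusted p = 0.0098 in edgeR), at a low level of 0.487 FPKM in PBS and 0.864 with rhSema3C. SLC7A6 and SLC7A8, which like SLC7A5 are light chains of SLC3A2, had log2 fold changes of -0.72 (SE 0.05) and -0.62 (SE 0.14), the latter not called with TPM (adjusted p = 0.051 from limma). SLC43A2, the close relative of SLC43A1, had -0.44 (SE 0.07). SLC38A3, a glutamine carrier, and SLC6A6, the taurine carrier, had -0.41 and -0.21, but neither call was stable. SLC38A3 was not called without rhSema3C replicate 2 or with library size alone (quasi-likelihood adjusted p = 0.056 in both, edgeR), nor with TPM (adjusted p = 0.2 from limma). SLC6A6 was not called with library size alone, the FPKM filter of 5 or any of the 3 limma settings (adjusted p between 0.058 and 0.86). SLC7A2, an arginine carrier, and SLC38A5 overlapped between the groups in CPM, and SLC7A2 was called higher with library size alone (adjusted p = 0.028, edgeR) and with TPM (adjusted p = 0.013, limma).

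Carriers inside the cell were called in both directions. All 7 tested genes of 8 listed for the lysosome, where amino acids released by protein breakdown leave for the cytosol, passed the adjusted p, 3 higher and 4 lower (31.7% and 30.6% of all genes), with a median of -0.32. SLC36A4, SLC38A9, an arginine sensor that signals to mTORC1, and SLC15A4 had log2 fold changes of 0.68, 0.63 and 0.48. SLC38A7, the cystine exporter CTNS, SLC66A1 and SLC36A1 had -0.62, -0.61, -0.37 and -0.32. In the mitochondrion, 10 of 12 listed genes were tested, of which 1 was higher and 6 lower, beside the same shares of all genes, with a median of -0.29. SLC25A29, a carrier of basic amino acids, had a log2 fold change of 0.34, while SLC25A44, a carrier of branched-chain amino acids, the glutamate carrier SLC25A22 and SFXN2 had -0.79, -0.62 and -0.60. Without rhSema3C replicate 2, 2 mitochondrial carriers were higher, and with TPM 3 were higher and 3 lower. SLC36A1 and SFXN2 were not called with TPM (adjusted p = 0.36 and 0.064, limma). No gene of these 3 lists passed a fold change of 2, where 3.42% of all genes tested were higher and 2.12% lower with an unadjusted p below 0.05.

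**Figure D3:**
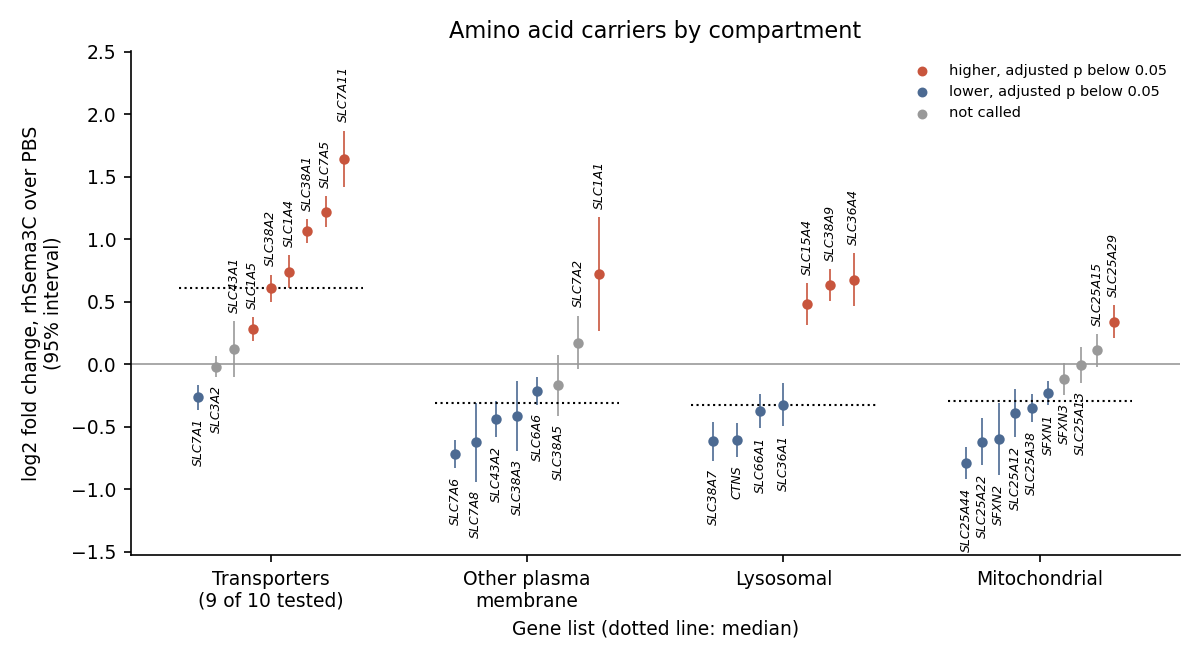
Log2 fold change (rhSema3C over PBS) with 95% intervals for the tested amino acid carriers, grouped by compartment, in red where higher and blue where lower at an adjusted p below 0.05 and grey otherwise, with dotted lines at the medians. The median is 0.61 for the plasma membrane transporters in question and between -0.32 and -0.29 for the other lists. The lists were chosen with earlier results of these data known, so the contrast is not a test.

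The genes known to sit upstream of and beside the transporters were examined next. ATF4 itself rose from 331.5 to 647.0 CPM, a log2 fold change of 0.96 (SE 0.04, quasi-likelihood adjusted p = 8.1e-09 in edgeR). In FPKM its means were 106.8 and 223.8. Of 13 genes of the ATF4 branch, all tested, 9 were higher, beside 31.7% of all genes, and 1 was lower, beside 30.6%, with a median of 0.96. They included CEBPG (1.90), a dimer partner of ATF4, DDIT3 (1.78), CHAC1 (1.67), which degrades glutathione, SESN2 (1.58), a leucine sensor, and TRIB3 (2.24). ATF3 rose by 1.00. CEBPB had 0.20, overlapped between the groups and was not called (quasi-likelihood adjusted p = 0.081 in edgeR). ATF4 itself and the 4 eIF2α kinases are counted in the 13. Of the 4 eIF2α kinases, EIF2AK3, the sensor of endoplasmic reticulum stress, had a log2 fold change of 0.72 and EIF2AK2, which responds to double-stranded RNA, had 0.23 (quasi-likelihood adjusted p = 4.8e-05 and 0.0023 in edgeR). EIF2AK1, which responds to heme deficiency, and EIF2AK4, the sensor of uncharged tRNA, had 0.03 and 0.06 (adjusted p = 0.53 and 0.30 in the same test). Both were called higher with library size alone, the FPKM filter of 5 and the 3 limma settings, with log2 fold changes from 0.13 to 0.25 for EIF2AK1 and from 0.14 to 0.27 for EIF2AK4 (adjusted p between 0.00087 and 0.029). The activity of the kinases was not measured. PPP1R15A, a phosphatase subunit that reverses eIF2α phosphorylation, had -0.18 (adjusted p = 0.0022). That call was lost with library size alone, the FPKM filter of 5 and all 3 limma settings (adjusted p between 0.066 and 0.27), and the sign turned with TPM (0.0441).

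Cystine brought in by SLC7A11 is reduced to cysteine, which feeds glutathione synthesis, and cysteine can also be made from methionine by transsulfuration. The transsulfuration enzymes CTH and CBS had log2 fold changes of 1.63 (SE 0.15) and 0.99 (SE 0.05). Of the enzymes that make glutathione, GCLC had 0.39 (SE 0.07), and GSS had -0.23 (SE 0.04). GCLM had 0.07 and overlapped between the groups in CPM but not in FPKM (5.61 to 5.91 in PBS, 6.18 to 7.15 with rhSema3C), and it was called higher with library size alone (adjusted p = 0.049, edgeR) and with TPM (adjusted p = 0.0059, limma). GSR and GPX4, which use or recycle glutathione, had -0.32 and -0.27. The falls of GSS, GSR and GPX4 were not called with TPM (adjusted p between 0.072 and 0.96, limma). In all, 3 of the 8 tested genes of this list were higher and 3 were lower, beside 31.7% and 30.6% of all genes. NRF2 itself (NFE2L2) rose by 0.74 on the log2 scale (SE 0.06, quasi-likelihood adjusted p = 1.6e-06 in edgeR), and of the list of NRF2 and 9 of its target genes, 3 were higher and 4 lower, with a median of -0.05. The targets SRXN1 and OSGIN1 had -0.49 and -0.73, and the ferritin genes FTH1 and FTL had 0.34 and -0.30, FTL losing its call with TPM (adjusted p = 0.19, limma). Of 10 chaperone and folding genes of the endoplasmic reticulum, 4 were higher and 4 lower, with a median of 0.04, from -0.93 for SDF2L1 to 0.89 for DNAJB9. The counts of both lists stand beside 31.7% higher and 30.6% lower among all genes.

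**Figure D4:**
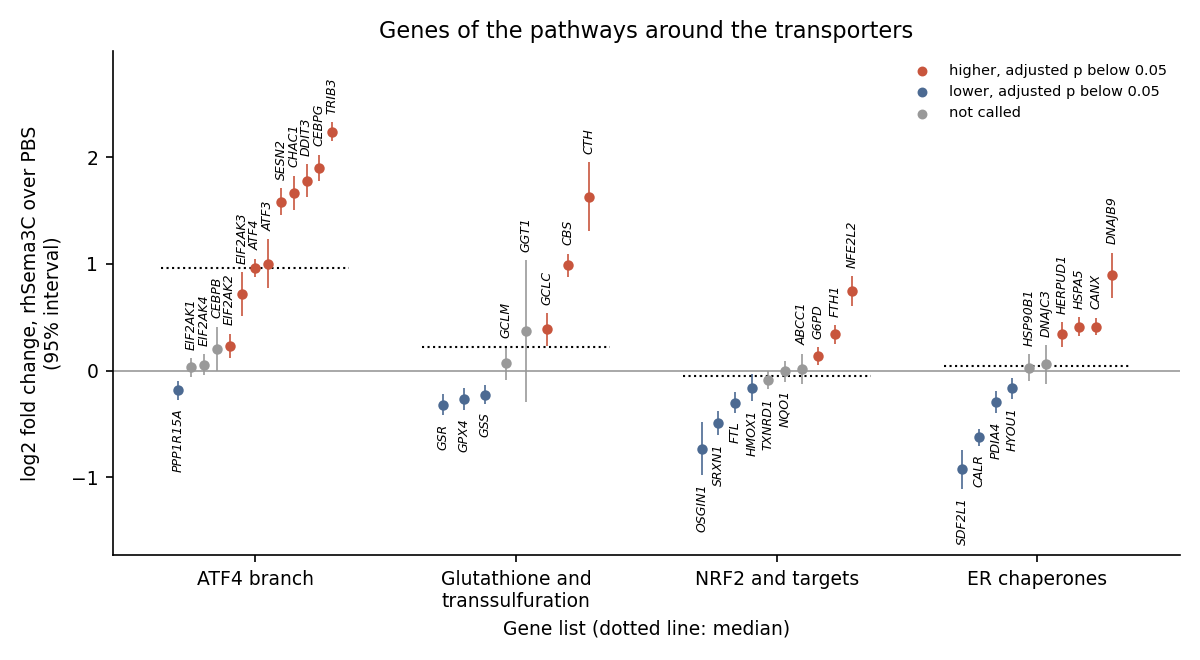
Log2 fold change (rhSema3C over PBS) with 95% intervals for genes of the ATF4 branch, glutathione and transsulfuration, NRF2 and its targets, and chaperones of the endoplasmic reticulum (ER), coloured as higher (red), lower (blue) or not called (grey) at an adjusted p below 0.05. The median is 0.96 for the ATF4 branch and 0.22, -0.05 and 0.04 for the other 3 lists.

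The genes most like the transporters at either end of the range were found from the Euclidean distance between log2 CPM values over the 6 samples, each centred on its PBS mean, among 11653 genes with a mean of at least 1 FPKM. Nearest to SLC7A11 were DDIT3 (distance 0.285), a transcription factor of the stress response, XPOT (0.298), the exporter of tRNA from the nucleus, and NFIL3 (0.318), with log2 fold changes of 1.78, 1.57 and 1.63. Nearest to SLC7A1 were ECE1 (0.0246), DDOST (0.0314) and WIPI2 (0.0361), with log2 fold changes of -0.27, -0.25 and -0.28. Like SLC7A1, these 3 were not called with TPM (adjusted p between 0.42 and 0.58, limma). With 2 groups of 3 samples, the distance mainly measures a similar difference between the groups.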

How the data were processed

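RNA was sequenced from 6 LX-2 samples, and group, replicate, dose and time were taken from the sample labels. The authors deposited a whole-number count per gene, not normalised, and an FPKM value, which relates the reads to gene length and sequencing depth, with 1 column per sample. Per the study's methods, genes were called with Cufflinks and cuffmerge at a more than 2-fold change. Which aligner, counter, strand option and genome build were used is not given in the sources used here, and the gene spans in the table lie on GRCh38 (GENCODE 29 has the same span for 5 of the 10 transporters, and its ends differ by at most 94 bases for the others).

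Testing was limited to the 14178 of 33900 genes whose FPKM averaged 0.5 or more. Counts were scaled with TMM factors and compared with the quasi-likelihood test of edgeR 4.0.16 in R 4.3.3, with Benjamini-Hochberg adjustment over all genes tested. Calls used an adjusted p below 0.05, or the study's fold change above 2 with an unadjusted p below 0.05. CPM values use the TMM-scaled library size. Levels of different genes were compared in FPKM. Counts are of reads without molecular identifiers. The procedure was also run on simulated counts in which few genes changed, equally often up and down. That run does not test data in which as many genes differ as here. The alternatives used limma 3.58.1, DESeq2 1.42.0, other scalings and filters, TPM made from FPKM, a replicate block and the omission of single samples. Same-numbered replicates did not deviate together (correlations -0.092, -0.084 and -0.037). Overlapping exons came from GENCODE 29 and start sites from RefSeq.

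The transporters and the gene lists were chosen with earlier results of these data known. The genes named were the 10 transporters, up to 3 rises and 3 falls with the largest change from each list of other carriers, genes of the 4 pathway lists and the 3 genes nearest in pattern to the transporter with the largest rise and to the one with the largest fall. SLC38A3, SLC6A6, SLC7A2, SLC38A5 and SLC36A1 were added after their values were seen.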

Additional observations from a re-analysis of the deposited data

How the results depend on the processing

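Across 15 alternative settings, the 9 tested transporters kept their direction and their side of the threshold in 127 of 134 values. The exceptions were SLC7A1 and SLC43A1 with limma on log2(TPM + 1), given above, and SLC3A2, whose sign turned in 5 settings. SLC3A2 had 0.0909 with library size alone and 0.0873 when the FPKM filter was 5 (adjusted p = 0.044 and 0.054, edgeR). With limma it had 0.0837 on log2(FPKM + 1), 0.0845 with a pseudocount of 0.1 and 0.2087 with TPM (adjusted p = 0.037, 0.036 and 0.00088). It was thus called higher in all of these but the FPKM filter of 5. Transporters called higher numbered 7 with library size alone and with both limma settings on FPKM, and 8 with TPM. The replicate block left 6 transporters higher and 1 lower, with a median of 0.61, and changed no call of a transporter. No same-numbered pair deviated together, which cannot show whether those samples were prepared together. The median of the transporters was 0.72 with library size alone, 0.51 without a filter (where SLC6A9 is included), 0.70 with limma on log2(FPKM + 1), 0.71 with a pseudocount of 0.1 and 0.83 with TPM, and with TPM no transporter was lower. Omitting single samples, SLC7A11 stayed between 1.54 and 1.72, SLC7A5 between 1.17 and 1.26 and SLC38A1 between 1.04 and 1.09.

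Of the other carriers in the plasma membrane, 2 were higher and 3 lower with library size alone, 2 and 2 with TPM, and 0 and 1 of the 2 left under the FPKM filter of 5, where 1 lysosomal carrier was higher. Of the mitochondrial carriers, 2 were higher with library size alone, under the FPKM filter of 5, with limma on log2(FPKM + 1) and with a pseudocount of 0.1, and 3 were higher and 3 lower with TPM. Omitting single samples, 1 or 2 were higher. With TPM, the log2 fold change was 0.0123 for SLC6A6, 0.057 for SLC38A5, 0.0441 for PPP1R15A and 0.0023 for GSS, all below 0 otherwise.

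The share of all genes called at the adjusted p was 12.5% higher and 12.3% lower without a filter, and 48.9% higher and 17.1% lower with TPM. The share past a fold change of 2 was 1.22% higher and 0.536% lower with limma on log2(FPKM + 1), and the lower share was 1.28% with a pseudocount of 0.1, 0.67% with TPM and 1.02% under the FPKM filter of 5. The cause of these differences was not tested. TPM moved the median of all genes by 0.20, so calls of small falls depend on the scaling. Genes below the filter, SLC6A9 among them, were tested only in the setting without a filter.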
